A study of Homo sapiens with 5 samples.

Results

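The genes described are the 812 genes of human chromosome 11 that gathered 20 or more reads at their poly(A) sites over 5 HEK293T libraries, of 15530 genes with that many reads in the whole table. HEK293T is a human embryonic kidney cell line. Members were taken by position and by read number: each poly(A) site was counted at its first listing, sites on chromosome 11 were kept, and their reads were summed for each gene. The chromosome was chosen by its high median gene read sum in the CFIm68 knockout lines against the control. That comparison is therefore given below as a description, with no test. The study asked how CFIm subunits and related arginine- and serine-rich proteins act in mRNA 3′ end formation. Its libraries were 2 CFIm68 (gene CPSF6) knockout lines, 2 CFIm59 (gene CPSF7) knockout lines and 1 wild type control, all HEK293T cells without any other treatment. Each knockout was made with CRISPR/Cas9, per the labels, and the labels call the lines of a pair different cell lines. Whether each line grew from a single cell was unstated. The control had no replicate, so differences from it carry only the spread between knockout lines, and both knockouts were set against the same control library.

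Cleavage factor Im (CFIm) helps to choose where a nascent mRNA is cut and given its poly(A) tail. Its small subunit CFIm25 (NUDT21) reads UGUA in the RNA, and its large subunit is either CFIm68 or CFIm59. Loss of CFIm25 or CFIm68 is known to move many genes to poly(A) sites nearer the stop codon. CPSF7, the gene of CFIm59, itself lies on the long arm of chromosome 11, beside many housekeeping genes. HEK293 cells are known for an unstable, rearranged set of chromosomes. The counts here come from RNA, and DNA copies were not analysed here.

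The promoters of CPSF7 and of SDHAF2, an assembly factor of succinate dehydrogenase, are shown because the 2 genes stand head to head and both stood higher in the CFIm68 lines, as described further on. Both sequences are from RefSeq on GRCh38.p14, a later build than the hg19 positions of the read counts, and each spans 250 bases before and 50 after the gene's start. Capitals mark 3 motifs searched on both strands: GGGCGG (the GC box bound by Sp1), CCGGAAG (bound by ETS factors) and TGACG (the core of a cyclic AMP response element). The CPSF7 promoter is chr11:61429926-61430225, minus strand, and the SDHAF2 promoter is chr11:61429874-61430173, plus strand.
CPSF7: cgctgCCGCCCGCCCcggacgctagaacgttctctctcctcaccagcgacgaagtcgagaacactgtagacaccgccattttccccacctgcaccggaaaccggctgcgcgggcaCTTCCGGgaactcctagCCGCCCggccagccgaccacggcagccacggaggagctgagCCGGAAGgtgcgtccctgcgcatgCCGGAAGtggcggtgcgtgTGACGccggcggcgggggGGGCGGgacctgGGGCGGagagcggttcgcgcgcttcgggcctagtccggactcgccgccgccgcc
SDHAF2: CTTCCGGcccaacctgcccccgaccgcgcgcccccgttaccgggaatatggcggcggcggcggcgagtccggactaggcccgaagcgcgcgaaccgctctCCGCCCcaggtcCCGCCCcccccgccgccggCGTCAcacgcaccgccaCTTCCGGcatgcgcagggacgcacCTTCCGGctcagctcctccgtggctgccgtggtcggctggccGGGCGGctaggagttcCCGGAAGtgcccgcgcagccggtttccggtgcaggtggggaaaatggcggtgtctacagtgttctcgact
The 2 windows overlapped over 248 bases, read from opposite strands. The CPSF7 window held 5 GC boxes, 3 CCGGAAG matches and 1 TGACG match, and the SDHAF2 window held 3, 4 and 1. All SDHAF2 matches but the one that opens its window lie in the shared bases, so they are CPSF7 matches read from the other strand. The GC box was found in 45.0% of all 35116 promoters of this length, CCGGAAG in 10.3% and TGACG in 24.6%. Neither window held TATAAA (11.5% of all promoters), CCAAT (34.6%) or CACGTG (7.26%). The CPSF7 window was 72.3% G and C and the SDHAF2 window 73%. These matches describe letters in a window and say nothing about which factor is bound.

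The table listed 1560 genes on chromosome 11. Of these, 201 had no read, 547 had 1 to 19 reads, and 812 had 20 or more. At the edge of the threshold, 5 genes held exactly 20 reads over the 5 libraries, among them RP11-732A19.2 with 7 and 4 reads in the CFIm68 lines, 6 and 3 in the CFIm59 lines and 0 in the control. Another 7 genes held 19 reads and stayed outside, among them SCN4B, a sodium channel subunit, with 7 and 3, 2 and 2, and 5 reads in the same order. Members lay on both strands, 427 on plus and 385 on minus, and they owned 10443 of the 12220 distinct sites listed on the chromosome. A read was seen at 8192 of those sites. Members held 587754 of the chromosome's 590710 reads, with a median of 247.5 reads per gene and a maximum of 35245 reads for RPLP2, a protein of the ribosomal stalk. A filter on low counts left 764 of the 812 for the fits across all 14635 genes.

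Library depth was 2727728 and 2078376 reads in the CFIm68 lines, 1673687 and 2585923 in the CFIm59 lines and 2924266 in the control. Mitochondrial sites took 8.02% and 6.01%, 9.79% and 10.8%, and 9.05% of them in that order. All 7 markers of HEK293 cells were above 1 CPM in at least 1 library, and their sum was 189 and 228 CPM in the CFIm68 lines, 155 and 206 in the CFIm59 lines and 192 in the control. IRS4, one of these markers, was at 0 in both CFIm59 lines. Of 4 blood markers 1 passed 1 CPM, HBB was at 0 throughout, and their sum lay between 0.828 and 1.80 CPM. Of 4 fibroblast markers 3 passed 1 CPM in at least 1 library, COL1A2 was at 0 throughout, and their sum lay between 9.01 and 18.2 CPM. Of 3 epithelial markers 2 passed 1 CPM in at least 1 library, and KRT5 was at 0 throughout. The epithelial markers summed to 56.4 CPM in CFIm59 line 1 and to between 9.77 and 16.7 CPM in the other libraries. CPSF6, the gene edited in the CFIm68 lines, stood at 47.9 and 45.7 CPM in them, 141 and 142 CPM in the CFIm59 lines and 120 CPM in the control. The edited part of CPSF7 was unstated, so its 3′ reads do not check the CFIm59 label.

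Chromosome 11 took a larger share of the reads in the CFIm68 lines than in the other 3 libraries. Of the nuclear reads, meaning all but those at mitochondrial sites, 5.97% (Wilson 95% interval 5.94 to 5.99) and 6.24% (6.21 to 6.27) came from it in CFIm68 lines 1 and 2. The share was 4.81% and 4.69% in the CFIm59 lines and 5.20% (5.18 to 5.23) in the control. Intervals here cover counting error only, since reads without molecular identifiers are not independent molecules. The 10 most-read genes carried 30.9% and 30.0% of the chromosome's reads in the CFIm68 lines, 30.3% and 32.4% in the CFIm59 lines and 35.9% in the control. Without those 10 genes the shares were 4.20% and 4.45% in the CFIm68 lines, 3.40% and 3.22% in the CFIm59 lines and 3.40% in the control. Both CFIm68 lines lay above the other 3 libraries with or without the most-read genes.

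Against the control, the difference lay mainly on 1 stretch of the long arm. Genes at 60 to 90 Mb (hg19), where CPSF7 lies, took 2.72% (2.70 to 2.74) and 3.08% (3.05 to 3.10) of nuclear reads in the CFIm68 lines, 1.93% and 1.82% in the CFIm59 lines and 2.03% (2.01 to 2.05) in the control. The rest of the chromosome took 3.25% and 3.16% in the CFIm68 lines, 2.88% and 2.87% in the CFIm59 lines and 3.17% in the control, so there both CFIm68 lines still lay above both CFIm59 lines, on either side of the control. The stretch was bounded after its values were seen, so nothing about it was tested. In bulk RNA, more cells carrying a transcript and more transcript per cell cannot be told apart.

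**Figure D1:**
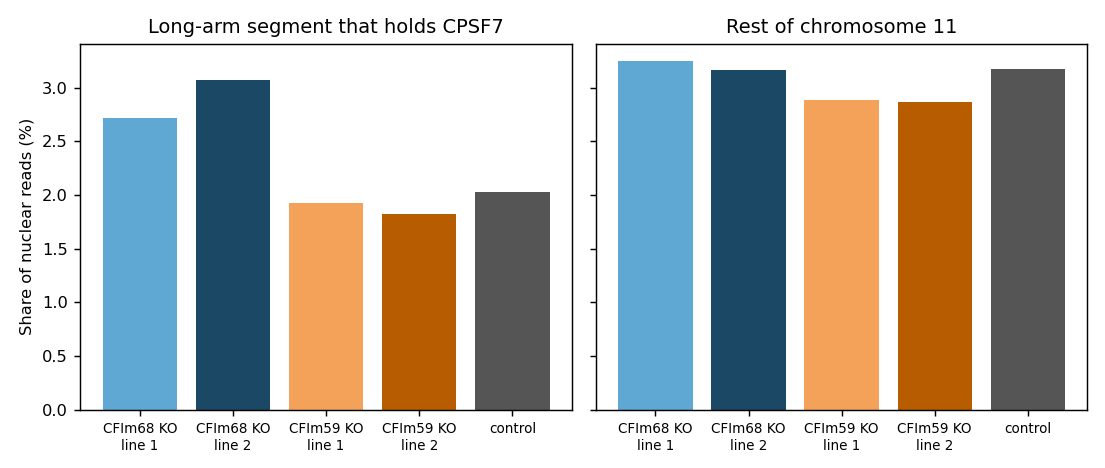
Share of nuclear reads in percent, by library, for genes of the long-arm segment at 60 to 90 Mb that holds CPSF7 (left) and for all other chromosome 11 genes (right); each bar is 1 library, and counting error is smaller than the bars can show. In the segment the CFIm68 lines stood at 2.72% and 3.08% and the other libraries between 1.82% and 2.03%, while outside it all 5 libraries stood between 2.87% and 3.25%.

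Gene by gene, the shift was broad and not large. Ratios to the control were taken on log2 CPM, that is CPM after TMM scaling, with a prior count of 2. The median member stood at log2 0.20 and 0.21 in the CFIm68 lines and at -0.04 and -0.07 in the CFIm59 lines, while the median of all 15530 genes was 0.01 and 0.01 in the CFIm68 lines and 0.00 and 0.00 in the CFIm59 lines. The middle 50% of members spanned log2 -0.13 to 0.59 in CFIm68 line 1 and -0.21 to 0.66 in line 2, against -0.46 to 0.41 and -0.42 to 0.37 in CFIm59 lines 1 and 2. Both CFIm68 lines lay above the control for 52.0% of members and for 37.7% of all genes. Both CFIm59 lines did so for 36.2% of members and 39.5% of all genes. Scaling by library totals in place of TMM moved the median of all genes to log2 0.21 and 0.24 in the CFIm68 lines. The chromosome 11 median less the all-gene median stayed at 0.19 and 0.20 in them.

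By the mean of its 2 CFIm68 ratios, chromosome 11 ranked 1 of 25 chromosomes, mitochondrial sites included, and by the CFIm59 ratios it ranked 14. Chromosome 9 came next, with 640 genes and medians of log2 0.17 and 0.24 in the CFIm68 lines. It was also high in the CFIm59 lines, at 0.52 and 0.20. The medians of chromosome 19 were 0.07 and 0.15 in the CFIm68 lines and 0.43 and 0.46 in the CFIm59 lines. Chromosome 13 lay lowest in the CFIm68 lines, at -0.23 and -0.40, and at 0.02 and 0.08 in the CFIm59 lines. Chromosomes other than 11 therefore also stood away from 0 in these lines, in either knockout.

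**Figure D2:**
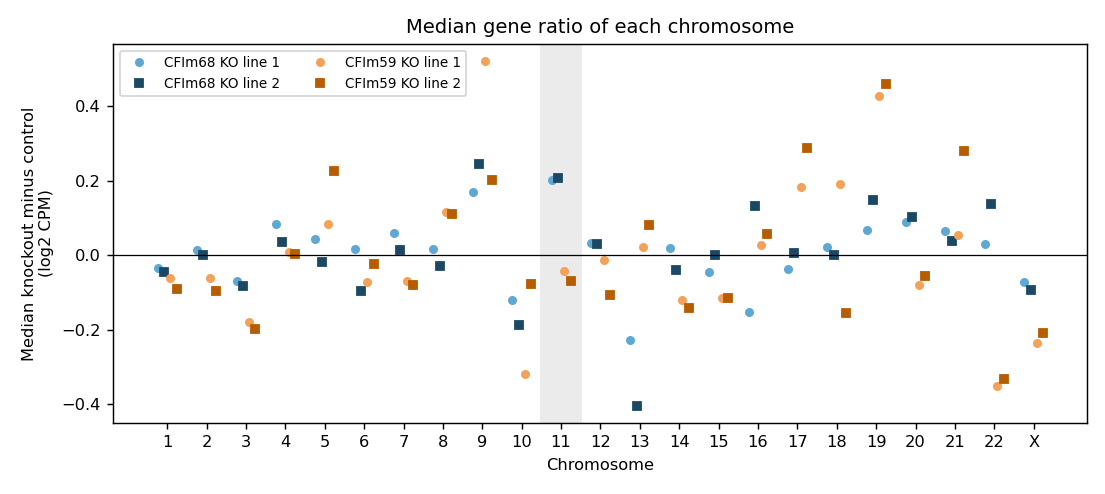
Median log2 CPM of each knockout line minus the control over the genes of each chromosome (x axis: chromosomes 1 to 22 and X, chromosome 11 shaded); each point is 1 line. On chromosome 11 the CFIm68 points stood at 0.20 and 0.21 and the CFIm59 points at -0.04 and -0.07, while on chromosome 9 all 4 points stood between 0.17 and 0.52.

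Along the chromosome, the 273 short-arm members had medians of log2 0.10 and 0.04 in the CFIm68 lines, and the 539 long-arm members had 0.25 and 0.31. The 28 long-arm members below 60 Mb were at 0.18 and -0.01. From 60 to 90 Mb, 320 members had medians of 0.38 and 0.53 in the CFIm68 lines and -0.06 and -0.06 in the CFIm59 lines. Set against the all-gene median of the same line, the segment's CFIm68 medians came to 1.29-fold and 1.44-fold. From 90 Mb to the end, 191 members were at -0.03 and -0.12. Over all 492 members outside the segment the medians were 0.08 and -0.01 in the CFIm68 lines and -0.03 and -0.07 in the CFIm59 lines.

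Most of the segment's genes leaned the same way. CFIm68 line 1 lay above the control for 256 of the 320 members and line 2 for 270, and both lines lay above it for 229 (71.6%). Both lay below it for 23 members (7.19%), against 36.2% of all genes. In the CFIm59 lines, 116 of the 320 lay above the control in both lines and 138 below it. The segment's middle 50% spanned log2 0.06 to 0.75 in CFIm68 line 1 and 0.17 to 0.87 in line 2. Leaving CPSF7 out left the medians at 0.38 and 0.53. Set against the mean of the CFIm59 lines in place of the control, the segment's medians were 0.44 and 0.61 in the CFIm68 lines. By the same measure, the members outside the segment were at 0.12 and -0.01.

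In steps of 5 Mb, each step of the segment had medians above 0 in both CFIm68 lines. The 112 members at 60 to 65 Mb had medians of log2 0.46 and 0.63 in the CFIm68 lines. The 97 at 65 to 70 Mb had 0.29 and 0.48, and the 52 at 70 to 75 Mb had 0.45 and 0.50. Further along, the 30 members at 75 to 80 Mb stood at 0.44 and 0.59, the 13 at 80 to 85 Mb at 0.25 and 0.37, and the 16 at 85 to 90 Mb at 0.56 and 0.29. The next step, with 21 members, was at 0.09 and 0.02. Of the 503 steps over the genome with 10 or more genes, 16 had both CFIm68 medians at or above 0.25. That level is the lowest median among the 6 steps just given, so those 6 reach it by construction, and the other 10 lie elsewhere. Ordered by the lower of the 2 CFIm68 medians, chromosome 11 held ranks 1, 2 and 4. Rank 3 was a step of 14 genes on chromosome 4, at 0.54 and 0.45 in the CFIm68 lines and 0.49 and 0.48 in the CFIm59 lines. Among the chromosome's 23 steps with 10 or more members, the lowest in both CFIm68 lines was at 125 to 130 Mb, where the 23 members had medians of -0.30 and -0.42, and 15 of them lay below the control in both. A step of 7 members at 95 to 100 Mb stood at -0.21 and -0.49.

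**Figure D3:**
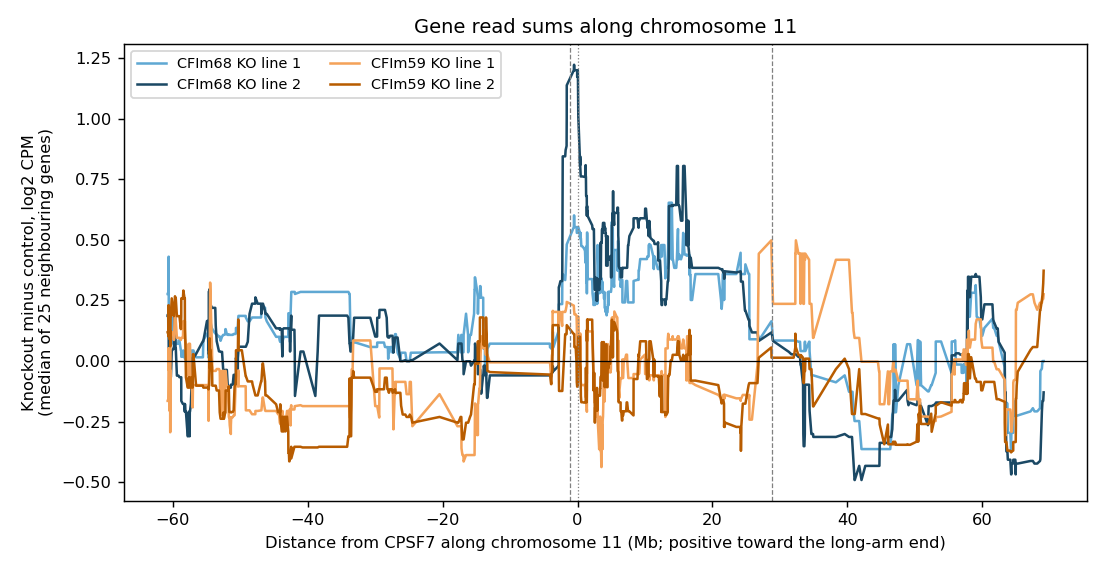
Median log2 CPM of each knockout line minus the control over 25 neighbouring members (y axis), against distance from CPSF7 in Mb (x axis, positive toward the end of the long arm); each line is 1 library, the dotted line is CPSF7 and the dashed lines bound the segment at 60 to 90 Mb. Both CFIm68 lines stand above 0 over the segment, whose medians are 0.38 and 0.53, and the CFIm59 lines, whose segment medians are -0.06, swing between -0.44 and 0.50 in line 1 and between -0.37 and 0.17 in line 2.

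The edges of the stretch were placed for each line by the 2 cuts that least squares favoured, with values limited to log2 2 either way and at least 20 members on each side. In CFIm68 line 1 the stretch ran from CNTF, a neurotrophic cytokine at 58.4 Mb, to NAALAD2, a peptidase gene at 89.9 Mb. It held 330 members with a median of log2 0.38, and the members outside had 0.08. In CFIm68 line 2 it ran from ZFP91, a zinc finger gene at 58.4 Mb, to FAT3, an atypical cadherin at 92.5 Mb, with 334 members at 0.54 against -0.02 outside. The left edges of the 2 lines were thus 1 gene apart, and the right edges differed by under 3 Mb. Against the mean of the CFIm59 lines, both lines gave a left edge between DTX4 at 58.98 Mb and OSBP at 59.3 Mb, and right edges at 86.6 Mb in line 1 and 85.3 Mb in line 2. In the CFIm59 lines against the control the same procedure put its cuts near the chromosome's ends, at 0.56 and 126.3 Mb in line 1 and at 0.70 and 126.3 Mb in line 2. The members between those cuts had medians of -0.06 and -0.09, and those beyond them 0.24 and 0.37.

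The kinds of gene and site in the segment were also read apart. Its 163 plus-strand members had medians of log2 0.33 and 0.51 in the CFIm68 lines, and its 157 minus-strand members had 0.44 and 0.58. The 265 protein-coding members were at 0.35 and 0.54, and 35 members of other annotated types at 0.64 and 0.50. The 96 least-read members were at 0.62 and 0.38. The 98 in the middle were at 0.36 and 0.60, and the 126 most-read at 0.31 and 0.54. Counting only last exon sites, 292 segment genes stood at 0.36 and 0.58, against -0.03 and 0.03 for all genes. Counting only intron sites, 96 segment genes stood at 0.47 and 0.39, against 0.14 and -0.05 for all genes. Upstream exon sites gave 0.18 and -0.23 over 10 segment genes, against 0.09 and -0.41 for all genes. Upstream exon sites of the segment thus lay below the control in CFIm68 line 2, and in each of the 3 site classes the segment lay above all genes in both CFIm68 lines.

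CPSF7 was among the higher genes of its segment. It stood at 128 and 204 CPM in the CFIm68 lines, 68.4 and 55.5 CPM in the CFIm59 lines and 59.8 CPM in the control. The CFIm68 lines lay above the other 3 libraries, and the control lay between the CFIm59 lines. The fitted difference of the CFIm68 lines from the control was log2 1.47, and that of the CFIm59 lines was 0.04 (SE 0.28, adjusted p = 0.947; edgeR's quasi-likelihood test, adjusted by Benjamini-Hochberg over all genes tested, as for every adjusted p below). Among the 241 segment members with 20 or more reads per library on average, CPSF7 ranked 10 by its CFIm68 difference, and 210 of the 241 had a difference above 0. Its reads came mainly from 2 last exon sites on the minus strand (hg19). The site at 61170202 held 297 and 381 reads in the CFIm68 lines, 89 and 121 in the CFIm59 lines and 131 in the control. The site at 61170120, further downstream, held 65 and 72, 22 and 11, and 27 reads in that order.

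The 10 members next to CPSF7, 5 on each side between 61.1 and 61.5 Mb, were read in the same way. Both CFIm68 lines lay above the control for 8 of the 10, and both lay above both CFIm59 lines for 6. Both CFIm59 lines lay above the control for 3 of the 10 and below it for 1. SDHAF2, whose promoter overlaps that of CPSF7, stood at 43.1 and 54.6 CPM in the CFIm68 lines, 18.0 and 19.5 in the CFIm59 lines and 23.3 in the control. Its CFIm68 values lay above all the others, with a fitted difference from the control of log2 1.06. DDB1, an adaptor of the CUL4 ubiquitin ligase, stood at 151 and 186 CPM, 106 and 96.9, and 103 in the same order. The ciliary genes TMEM138 and TMEM216 both showed the CFIm68 lines above the rest. TMEM138 was at 50.7 and 67.5 CPM in the CFIm68 lines, 29.4 and 22.8 in the CFIm59 lines and 22.9 in the control. TMEM216 was at 21.2 and 19.5, 12 and 11.6, and 7.90 CPM in that order. CYB561A3, a cytochrome b561 family member, was at 38.9 and 70.6, 42 and 29, and 27.8 CPM, so that CFIm68 line 1 lay between the CFIm59 lines. DAK, a dihydroxyacetone kinase, was at 15.6 and 27.1, 11.4 and 18.6, and 15.8 CPM, with no separation of the libraries. On the far side, SYT7, a calcium sensor of vesicle fusion, was at 9.73 and 10.7, 7.80 and 3.73, and 6.77 CPM. DAGLA, which makes the endocannabinoid arachidonoylglycerol, was at 14.2 and 16.0 in the CFIm68 lines, 17.4 and 19.5 in the CFIm59 lines and 9.78 in the control, so both knockouts lay above the control. PPP1R32 had under 5 CPM in each library.

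**Figure D4:**
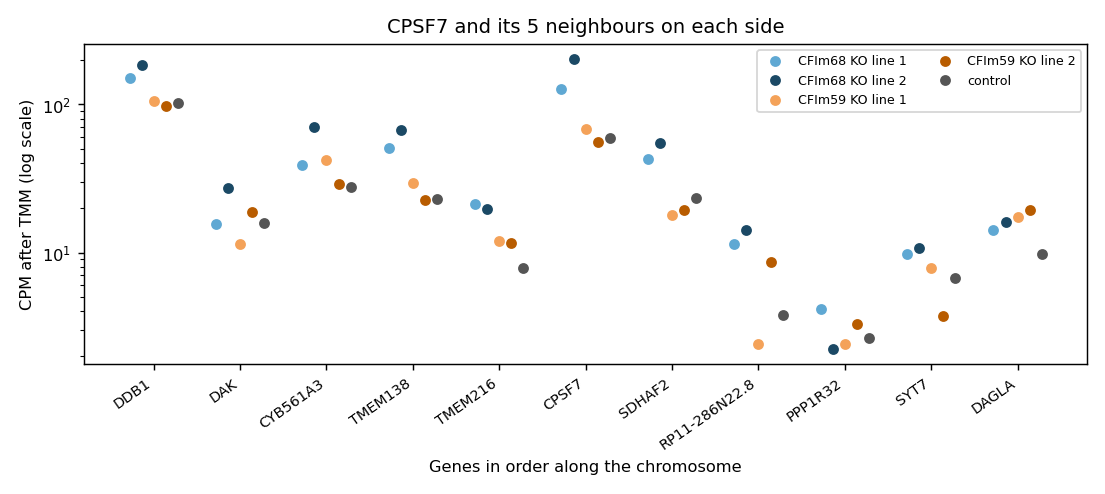
CPM after TMM on a log axis (y) for CPSF7 and the 5 members on each side of it, in order along the chromosome (x); each point is 1 library. Both CFIm68 lines stand above the control for CPSF7 and for 8 of its 10 neighbours, and the CFIm59 points of CPSF7, at 68.4 and 55.5 CPM, lie on either side of the control at 59.8 CPM.

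Of the 764 members tested, 34 passed an adjusted p of 0.05 as higher in the CFIm68 lines than in the control (4.45%, beside 1.58% of all genes) and 7 as lower (0.916%, beside 2.02%). Since this contrast chose the chromosome, nothing is read from those shares. The genes named next were the 8 highest and 8 lowest by fitted difference with 20 or more reads per library on average.

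RAB38, a small GTPase of lysosome-related organelles at 87.8 Mb, led the higher genes with 24 and 20 reads in the CFIm68 lines, 25 and 31 in the CFIm59 lines and 2 in the control. Its ratio to the control over both CFIm68 lines was 13.4, with an exact 95% counting interval of 3.49 to 114, and both knockouts lay above the control. FADS3, of the fatty acid desaturase family at 61.6 Mb, stood at 18.4 and 21.8 CPM in the CFIm68 lines, 10.2 and 9.53 in the CFIm59 lines and 5.64 in the control. UNC93B1, the chaperone of endosomal Toll-like receptors at 67.8 Mb, was at 14.6 and 19.5, 7.20 and 12.4, and 5.26 CPM in that order. In both genes the CFIm68 lines were highest and the control lowest. PLA2G16, a phospholipase of fat tissue at 63.3 Mb, was at 57.0 and 51.5 CPM in the CFIm68 lines, 8.41 and 20.3 in the CFIm59 lines and 17.7 in the control. PLEKHB1 at 73.4 Mb was at 26.8 and 16.0, 5.40 and 8.28, and 7.14 CPM. RP11-286N22.8 at 61.2 Mb was at 11.5 and 14.2, 2.4 and 8.70, and 3.76 CPM. In these 3 the control lay between the CFIm59 lines and below both CFIm68 lines. The 2 outside the segment were TMEM136 at 120.2 Mb, with 54.2 and 46.2, 10.8 and 12, and 17.7 CPM, and CLMP, an adhesion molecule at 123.0 Mb, with 7.64 and 12, 15.6 and 14.5, and 3.38 CPM.

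Among the 8 lowest, LDHA, the muscle-type subunit of lactate dehydrogenase at 18.4 Mb, had most reads. It stood at 726 and 638 CPM in the CFIm68 lines, 599 and 787 in the CFIm59 lines and 1498 in the control, so that all 4 knockout lines lay below the control. TAF1D, a subunit of the RNA polymerase I factor SL1 at 93.5 Mb, was at 158 and 170 CPM in the CFIm68 lines, 101 and 134 in the CFIm59 lines and 323 in the control. DCPS, the scavenger decapping enzyme at 126.2 Mb, was at 18.8 and 24.4, 30.0 and 29.8, and 48.5 CPM. Its neighbour RPUSD4, a mitochondrial pseudouridine synthase at 126.1 Mb, was at 11.5 and 14.7, 20.4 and 20.7, and 33.8 CPM. In LDHA, TAF1D, DCPS and RPUSD4 every knockout line lay below the control. SNX19, a sorting nexin at 130.7 Mb, ran apart in the 2 knockouts, with 2.43 and 0 CPM in the CFIm68 lines, 28.8 and 24.9 in the CFIm59 lines and 4.89 in the control. SLC43A1, an amino acid transporter at 57.3 Mb, was at 6.60 and 3.55, 9.01 and 7.46, and 15 CPM. PACSIN3, an endocytic adaptor at 47.2 Mb, was at 14.2 and 21.8, 21.6 and 41.4, and 36.5 CPM. IMMP1L, a mitochondrial inner membrane peptidase at 31.5 Mb, was at 6.60 and 6.66, 14.4 and 9.53, and 13.5 CPM.

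The CFIm68 and CFIm59 lines were also set against each other, where each group had 2 lines. This comparison shares the CFIm68 libraries with the choice of chromosome and is again a description. As higher in the CFIm68 lines, 131 of the 764 passed (17.1%, beside 9.44% of all genes), and 34 passed as lower (4.45%, beside 10.2%). In the segment 95 of 301 passed as higher (31.6%) and 4 as lower. Outside it 36 of 463 passed as higher (7.78%) and 30 as lower. Without CFIm59 line 2 the counts for the chromosome were 68 higher and 16 lower, and without CFIm59 line 1 70 were higher.

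The CFIm59 lines were compared with the control to see whether the chromosome moved there too. Of the 764 members 39 rose (5.10%, beside 6.98% of all genes) and 36 fell (4.71%, beside 6.87%). The chromosome's shares were thus below those of all genes in both directions. In the segment 9 of 301 rose and 20 fell. Outside it 30 of 463 rose and 16 fell. The median fitted difference was log2 -0.04 on the chromosome and 0.02 over all genes tested. Without CFIm59 line 1, 25 rose, and with DESeq2 11 rose and 15 fell. Of the 39 that rose, 10 have 20 reads only through the CFIm59 lines and so had to differ, and the counts of genes that rose include them.

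Of the genes that rose, 8 were named by size, among those with 20 or more reads per library on average. RAB38, SLCO2B1, SNX19 and CLMP averaged under 20 reads in the libraries other than the CFIm59 lines. Their naming thus leaned on the lines in which they were high. RAB38 was at 15 and 12.8 CPM in the CFIm59 lines and 0.752 CPM, or 2 reads, in the control (ratio 19.2, exact 95% counting interval 5.08 to 163; adjusted p = 7.34e-05). SLCO2B1, an organic anion transporter at 74.8 Mb, was at 12.6 and 19.9 CPM against 2.26 in the control (log2 2.85, SE 0.60, adjusted p = 0.000642). SNX19 was at 28.8 and 24.9 CPM against 4.89 (log2 2.44, adjusted p = 0.000469). These 3 lay well apart from the control in both lines. IFITM2, an interferon-induced barrier to virus entry at 0.309 Mb, was at 50.4 and 102 CPM against 21.4 (log2 1.85, adjusted p = 9.41e-05). CALCB, which encodes a calcitonin gene-related peptide, at 15.1 Mb, was at 50.4 and 32.3 CPM against 12 (log2 1.76, adjusted p = 0.000451). CLMP was at 15.6 and 14.5 CPM against 3.38 (log2 2.13, adjusted p = 0.0042). NAV2, a neuron navigator, was at 18.6 and 12.4 against 4.14 CPM, and FAT3 at 22.8 and 14.1 against 5.26 CPM, with adjusted p of 0.00883 and 0.00713 that became 0.0765 and 0.0848 without CFIm59 line 1. For RAB38, SLCO2B1, CLMP, NAV2, IFITM2, FAT3 and CALCB, all of the 8 but SNX19, both CFIm68 lines also lay above the control, and the 2 knockouts share that control.

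Of the genes that fell, SPDYC, of the Speedy family of CDK activators at 64.9 Mb, was at 0 and 2.07 CPM in the CFIm59 lines against 14.7 in the control (log2 -3.54, SE 0.63, adjusted p = 6.59e-05). Its CFIm59 reads were 0 and 5, and the difference was -2.78 without CFIm59 line 1 and -8.12 without line 2, so its size rests on single lines. SIGIRR, a brake on interleukin-1 and Toll-like receptors at 0.406 Mb, was at 6.0 and 8.28 CPM against 35.7 (log2 -2.28, adjusted p = 7.61e-06). HTATIP2, an oxidoreductase at 20.4 Mb, was at 25.8 and 15.7 CPM against 81.2 (log2 -2.001, adjusted p = 2.62e-06). UCP2, a mitochondrial uncoupling protein at 73.7 Mb, was at 12.6 and 14.5 CPM against 45.9 (log2 -1.74, adjusted p = 9.49e-05). In these 4 both CFIm59 lines lay below the control and below both CFIm68 lines. RP11-702H23.4 at 74.2 Mb, annotated as antisense, was at 6.60 and 7.04 CPM against 30.1 (log2 -2.13, adjusted p = 3.8e-05). CBX3P1, a processed pseudogene of the heterochromatin gene CBX3 at 27.8 Mb, was at 4.20 and 6.21 CPM against 21.1 (log2 -1.96, adjusted p = 0.000437), and its reads may be shared with its parent gene. METTL12, a mitochondrial methyltransferase at 62.4 Mb, was at 33.6 and 78.7 CPM against 166 (log2 -1.53, adjusted p = 8.29e-05). TRPT1, a tRNA phosphotransferase at 64.0 Mb, was at 6.0 and 3.31 CPM against 13.5 (log2 -1.59, adjusted p = 0.0231), and its adjusted p was 0.232 without CFIm59 line 2. With DESeq2, SLCO2B1, SNX19, CLMP, NAV2, FAT3, TRPT1 and METTL12 no longer passed.

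Known groups of genes on the chromosome were then read across the libraries, as lists chosen with earlier results of these data known. Each is given by its count of calls and the median of its members, beside all-gene medians of 0.01 and 0.01 in the CFIm68 lines and 0.00 and 0.00 in the CFIm59 lines. Of all genes tested, 6.98% rose and 6.87% fell in the CFIm59 lines. The list of 3′ end processing and Integrator genes holds 6 members, and 4 of them lie in the segment. The list's medians were log2 0.33 and 0.56 in the CFIm68 lines and 0.05 and -0.11 in the CFIm59 lines. In the CFIm59 comparison 0 of the 6 were called. CSTF3, a cleavage stimulation factor subunit on the short arm, was at 123 and 110 CPM in the CFIm68 lines, 92.5 and 113 in the CFIm59 lines and 122 in the control. PCF11, which ends transcription, was at 41.3 and 51.1, 56.4 and 38.9, and 34.6 CPM, and INTS4, an Integrator subunit, at 40.7 and 59.9, 21.0 and 35.2, and 39.9 CPM. Of 19 splicing and RNA-binding genes, 11 in the segment, 0 were called in the CFIm59 comparison, and the medians were 0.04 and 0.21 in the CFIm68 lines. PRPF19, the ubiquitin ligase of the spliceosome, was at 135 and 251 CPM in the CFIm68 lines, 84.1 and 84.9 in the CFIm59 lines and 98.1 in the control. SF1, which binds the branch point, was at 155 and 198, 227 and 189, and 131 CPM, so that every knockout line lay above the control.

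Of 5 noncoding RNAs on the list 4 were tested, and 1 rose (beside 6.98% of all genes) and 1 fell (beside 6.87%) in the CFIm59 lines, both in the segment. NEAT1, the scaffold of paraspeckles, rose to 137 and 120 CPM in the CFIm59 lines, against 38.4 in the control, and was at 39.96 and 28.9 CPM in the CFIm68 lines (CFIm59 against control log2 1.74, SE 0.29, adjusted p = 1.94e-05). SNHG1, a host gene of small nucleolar RNAs, fell to 113 and 111 CPM in the CFIm59 lines, against 272 in the control, and was at 147 and 182 CPM in the CFIm68 lines (log2 -1.28, SE 0.24, adjusted p = 0.000122). SNHG1 thus lay below the control in every knockout line, inside a segment whose median was above it in the CFIm68 lines. MALAT1, the speckle RNA next to NEAT1, was at 181 and 62.2, 124 and 97.3, and 107 CPM. The 7 imprinted genes of 11p15 had medians of 0.02 and -0.21 in the CFIm68 lines and 0.16 and 0.26 in the CFIm59 lines, with 0 calls among the 6 tested. PHLDA2, a growth-limiting placental gene, was at 29.5 and 22.6 CPM in the CFIm68 lines, 27.6 and 24.4 in the CFIm59 lines and 42.5 in the control, while KCNQ1OT1, the antisense RNA of the domain, was at 19.8 and 12.9, 16.8 and 15.3, and 19.6 CPM.

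Genes of translation and of mitochondria, which include the most-read members, did not stand high. The 11 ribosome and translation genes had medians of log2 -0.03 and -0.04 in the CFIm68 lines and -0.28 and -0.21 in the CFIm59 lines, where 2 fell (beside 6.87% of all genes) and 0 rose. RPS25 fell to 1234 and 1391 CPM in the CFIm59 lines, against 2087 in the control (log2 -0.67, SE 0.23, adjusted p = 0.0379), and was at 1280 and 1182 CPM in the CFIm68 lines. FAU, a ribosomal protein fused to a ubiquitin-like domain at 64.9 Mb, fell to 959 and 970 CPM in the CFIm59 lines, against 1655 in the control (adjusted p = 0.0144), and was at 1536 and 1359 CPM in the CFIm68 lines. RPS3, in the segment at 75.1 Mb, was at 2483 and 2629, 2125 and 1964, and 2532 CPM, and RPLP2 at 2566 and 2676, 2727 and 3045, and 3738 CPM. EEF1G, an elongation factor subunit at 62.3 Mb, was at 1462 and 1797 CPM in the CFIm68 lines, 1096 and 1420 in the CFIm59 lines and 1060 in the control. FTH1, the ferritin heavy chain at 61.7 Mb, was at 1134 and 1270, 573 and 569, and 891 CPM. Both FTH1 and EEF1G were highest in the CFIm68 lines, and RPS3 and FAU of the same segment were not. Ribosomal protein genes have many near-identical pseudogenes, so their counts are uncertain. Of 20 mitochondrial genes, 12 lie in the segment. The list's CFIm68 medians were -0.09 and -0.07, and both CFIm68 lines lay above the control for 8 of the 20 and below it for 10. In the CFIm59 lines the list's medians were -0.37 and -0.34, and 3 genes fell (beside 6.87% of all genes) and 0 rose (beside 6.98%). ATP5L, a subunit of ATP synthase, fell to 309 and 400 CPM in the CFIm59 lines, against 715 in the control (log2 -1.01, adjusted p = 0.0017), and the others were the mitoribosomal genes MRPL11 and MRPL21, named after their values were seen. NDUFC2, a complex I subunit at 77.8 Mb, was at 511 and 525, 291 and 356, and 377 CPM.

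The 12 sterol and lipid enzymes, 6 of them in the segment, had the highest CFIm68 medians of the lists, log2 0.64 and 0.58, with -0.05 and -0.20 in the CFIm59 lines. FADS1, a fatty acid desaturase, was at 116 and 171 CPM in the CFIm68 lines, 67.2 and 66.7 in the CFIm59 lines and 75.2 in the control. ACAT1, a thiolase outside the segment, was at 124 and 79.0, 104 and 86.6, and 145 CPM. A single member fell in the CFIm59 lines, DHCR7, the last enzyme of cholesterol synthesis, to 31.2 and 26.5 CPM against 65.4 in the control (log2 -1.19, adjusted p = 0.0037), and it was named after its values were seen. Of 17 genes of DNA replication, repair and the cell cycle, 2 rose in the CFIm59 lines (beside 6.98% of all genes), both outside the segment and named after their values were seen. H2AFX, the histone marked at DNA breaks, rose to 155 and 97.8 CPM against 44.7 in the control, and FANCF, of the Fanconi core complex, to 19.2 and 25.3 CPM against 0.376, or 1 read. FANCF is one of the genes with 20 reads only through the CFIm59 lines. FEN1, a flap endonuclease in the segment, was at 134 and 154 CPM in the CFIm68 lines, 94.9 and 91.1 in the CFIm59 lines and 101 in the control. Of 13 proteasome and ubiquitin genes 0 were called in the CFIm59 comparison, and the medians in the CFIm68 lines were 0.04 and -0.02. PSMA1, a core proteasome subunit, was at 309 and 275, 252 and 221, and 301 CPM. Of 25 chromatin and transcription genes, TAF1D fell in the CFIm59 lines (log2 -1.45, adjusted p = 1.62e-05) and ETS1 was called higher, with 20 reads only through those lines, and the list's CFIm68 medians were -0.02 and 0.03. POLR2G, an RNA polymerase II subunit in the segment, was at 238 and 264, 113 and 130, and 164 CPM. Of 16 vesicle traffic genes RAB38 and SNX19 rose, with list medians of 0.17 and 0.38 in the CFIm68 lines and 0.24 and 0.14 in the CFIm59 lines. Of 12 adhesion and surface receptor genes CD44 was called higher, again with 20 reads only through the CFIm59 lines, with list medians of 0.24 and 0.34 in the CFIm68 lines and 0.35 and 0.35 in the CFIm59 lines. CD59, a complement inhibitor outside the segment, was at 149 and 124.8, 72.0 and 70.4, and 105 CPM.

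Poly(A) site choice was tested next, since gene sums chose the chromosome and the split of a gene's reads between sites did not enter that choice. For each gene the 2 most-read sites made a pair, and the upstream one was called proximal. On chromosome 11, 274 genes had a pair with enough reads, 216 of them with both sites in the last exon, at a median distance of 1376 nt (1375 nt over all 5869 genes). The median proximal use was 49.0% and 46.5% in the CFIm68 lines, 30.5% and 32.8% in the CFIm59 lines and 34.5% in the control, with 50% and 47.1%, 28.6% and 29.2%, and 34.4% over all genes.

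In the CFIm68 lines against the control, 53 of the 274 genes moved to the proximal site (19.3%, beside 25% of all genes) and 10 to the distal site (3.65%, beside 3.10%). The counts to proximal include genes such as CUL5, whose proximal site reached the read minimum only through the CFIm68 lines. In the segment 12 of 98 moved to proximal (12.2%), and outside it 41 of 176 (23.3%). The median pair distance was 1120 nt in the segment and 1457 nt outside, and its part in this was not tested. By distance, 1 of 56 chromosome 11 pairs under 250 nt apart moved to proximal (1.79%, beside 4.55% of all genes at that distance). At 250 to 1000 nt 17 of 65 did (26.2%, beside 27.8%), and at 1000 to 4000 nt 22 of 77 (28.6%, beside 42.2%). Beyond that, 13 of 76 moved (17.1%, beside 17.4%). Gene sums were higher in the segment with either site choice. The 12 segment genes that moved to proximal had median ratios of log2 0.18 and 0.34, and the 86 others with a pair had 0.34 and 0.51.

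AASDHPPT, which attaches phosphopantetheine to carrier proteins (106.0 Mb), used its proximal site for 80.5% and 83% of pair reads in the CFIm68 lines, 6.92% and 11% in the CFIm59 lines and 15.1% in the control (Wilson 95% interval 10.7 to 21.0; CFIm68 against control log2 4.63, SE 0.45, adjusted p = 2.06e-11). Its last exon sites lie at 105967715 and 105969420. CUL5, a cullin scaffold of ubiquitin ligases (108.0 Mb), used it for 76.3% and 71.9%, 10.0% and 3.92%, and 9.89% (5.29 to 17.7), a difference of log2 4.70. The proximal site of CUL5 reached the minimum of 5 reads per library on average only through the CFIm68 lines. That minimum favoured a difference, so no test is given for CUL5. CADM1, a cell adhesion molecule (115.0 Mb), was at 83.5% and 68.5% in the CFIm68 lines, 11.4% and 10.2% in the CFIm59 lines and 22.7% in the control (15.5 to 32.0; adjusted p = 2.49e-07). In all 3 the CFIm68 lines lay far above the other libraries, and the sites were 1705 to 2921 nt apart. APLP2, a relative of the amyloid precursor protein with 917 pair reads in the control, was at 66.0% and 60.0%, 12.5% and 11.6%, and 17.7% (15.3 to 20.3; log2 2.996, SE 0.37, adjusted p = 7.38e-09). ZBTB44, a zinc finger gene, was at 53.4% and 66.7%, 17.7% and 16.4%, and 13.3% (7.56 to 22.2; adjusted p = 9.41e-05). INCENP, of the chromosomal passenger complex and inside the segment, was at 90.8% and 90.5%, 30.9% and 40.9%, and 50.6% (40.3 to 60.8; log2 3.23, adjusted p = 6.98e-07). PCF11, itself a 3′ end factor and inside the segment, was at 74.6% and 58.8%, 15.9% and 26%, and 28.3% (18.5 to 40.8; log2 2.33, adjusted p = 0.00135), and with DESeq2 its adjusted p was 0.0585. RNF141, a RING finger gene, moved opposite ways in the knockouts, with 67.8% and 85.4% in the CFIm68 lines, 11.4% and 10.6% in the CFIm59 lines and 33.2% in the control (26.8 to 40.2; adjusted p = 5.35e-06 for CFIm68 and 0.00957 for CFIm59).

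Fewer genes moved to the distal site. The median distance between the sites was 287 nt for these 10 genes, 2253 nt for the 53 that moved to proximal and 1376 nt for all 274 pairs, and 4 of the 10 had sites under 250 nt apart, against 56 of the 274; the difference was not tested. FIBP, which binds fibroblast growth factor 1 (65.7 Mb), used its proximal site for 67.3% and 61.6% in the CFIm68 lines, 96.5% and 93.0% in the CFIm59 lines and 90.4% in the control (83.2 to 94.7; log2 -2.35, SE 0.55, adjusted p = 0.000631), with 181 nt between the sites. LTBP3, which holds latent TGF-beta (65.3 Mb), was at 47.7% and 44.2%, 62.3% and 51.2%, and 71.2% (58.6 to 81.2; adjusted p = 0.025). FBXO3, an F-box protein, was at 15.7% and 14.9%, 41.9% and 24.7%, and 33.0% (24.7 to 42.6; adjusted p = 0.0324). MRPL17, a mitoribosomal protein, was at 66.2% and 71.9%, 90.3% and 86.2%, and 82.8% (77.5 to 87.1; adjusted p = 0.0469). In these 4 genes both CFIm68 lines lay below the other 3 libraries. FBXO3 no longer passed without either CFIm68 line (adjusted p = 0.0574 and 0.0759), MRPL17 without CFIm68 line 1 (0.170) or either CFIm59 line (0.0634 and 0.0629), and LTBP3, FBXO3 and MRPL17 did not pass with DESeq2.

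**Figure D5:**
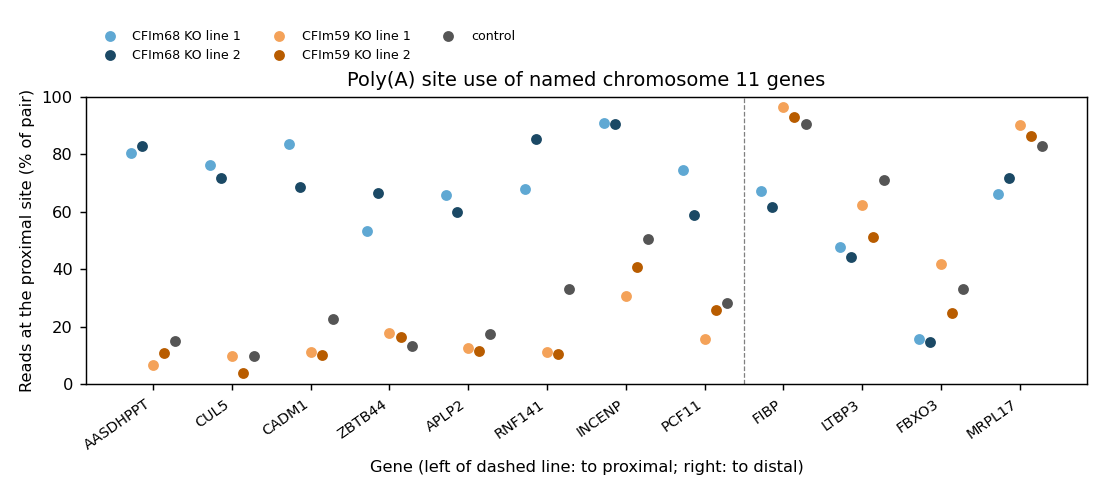
Reads at the proximal site as a percentage of the pair's reads (y axis) for the 12 chromosome 11 genes named for the CFIm68 lines (x axis; to proximal left of the dashed line, to distal right of it); each point is 1 library. For AASDHPPT the CFIm68 lines stand at 80.5% and 83% and the other 3 libraries between 6.92% and 15.1%, and for FIBP the CFIm68 lines stand at 67.3% and 61.6%, below the other 3.

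In the CFIm59 lines against the control, 2 of the 274 genes moved to the proximal site (0.730%, beside 0.988% of all genes) and 12 to the distal site (4.38%, beside 5.06%). With DESeq2 0 passed either way, and at an unadjusted p under 0.05 edgeR gave 12 and 32. DLAT, a core subunit of pyruvate dehydrogenase (111.9 Mb), used its proximal site for 29.3% and 21.2% in the CFIm59 lines and 64.3% in the control (52.6 to 74.5; log2 -2.43, SE 0.57, adjusted p = 0.00512). FDX1, the adrenodoxin that feeds electrons to steroid-making enzymes (110.3 Mb), used it for 35.7% and 30.6% in the CFIm59 lines and 64.7% in the control (55.6 to 72.8; adjusted p = 0.0144). In the CFIm68 lines FDX1 went the other way, with 84.3% and 89.9% (adjusted p = 0.0032), while DLAT was at 83.1% and 77.7% (adjusted p = 0.0817). CLPB, a mitochondrial disaggregase (72.0 Mb), was at 41.0% and 48.9% in the CFIm59 lines and 79.8% in the control (70.8 to 86.5; adjusted p = 0.00717), with 75.9% and 78.5% in the CFIm68 lines. TTC9C, a tetratricopeptide repeat gene (62.5 Mb), was at 33.3% and 40.5% against 71.2% (62.4 to 78.6; adjusted p = 0.0175). In these 4 genes both CFIm59 lines lay below the control and below both CFIm68 lines.

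The 2 genes that moved to the proximal site in the CFIm59 lines had little use of it in the control. NCAPD3, a condensin II subunit (134.0 Mb), used an upstream exon site for 19.3% and 12.5% in the CFIm59 lines and 3.79% in the control (1.93 to 7.30; adjusted p = 0.0189), with 10.2% and 7.39% in the CFIm68 lines. PIK3C2A, a phosphoinositide kinase of endocytosis (17.1 Mb), used its proximal site for 15.6% and 7.53% in the CFIm59 lines, against 1 read of 109, or 0.917% (0.162 to 5.01), in the control. The ratio of its proximal to distal reads over both CFIm59 lines was 13 times that of the control (exact 95% counting interval 1.98 to 553, adjusted p = 0.0333). Over both CFIm68 lines, at 19% and 16.9%, it was 23.5 times (3.78 to 974). The proximal site of PIK3C2A reached 5 reads per library on average only with the CFIm68 lines, so no test is given for those lines. These calls were sensitive to single lines: without CFIm59 line 1 NCAPD3, PIK3C2A, CLPB and TTC9C no longer passed (adjusted p = 0.133, 0.199, 0.0592 and 0.115), and without CFIm59 line 2 DLAT, TTC9C and FDX1 no longer did (0.0753, 0.0674 and 0.146). Without those lines the chromosome's distal count was 5 and 4.

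Between the knockouts, where each group had 2 lines, 93 of the 274 genes used the proximal site more in the CFIm68 lines (33.9%, beside 40.5% of all genes) and 20 used it less (7.30%, beside 6.08%). In the segment the counts were 24 and 10 of 98, and outside it 69 and 10 of 176. The median difference was log2 0.71 on the chromosome and 0.89 over all genes tested, and it was 0.43 in the segment. There were 4 genes that passed in both knockouts against the shared control: RNF141, ATL3 and FDX1 with opposite signs, and PIK3C2A with the same sign. How often all genes did so is not given here, so nothing is read from the number of such genes or their signs.

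The same lists were read for moves to proximal in the CFIm68 lines, which 25% of all genes made. The counts were 1 of 3 tested pairs among 3′ end genes (PCF11), 1 of 12 among splicing genes, 2 of 9 among sterol and lipid enzymes, 1 of 9 among replication and cell cycle genes, 1 of 7 among proteasome and ubiquitin genes (CUL5), 3 of 11 among chromatin and transcription genes, 2 of 9 among vesicle traffic genes and 1 of 5 among adhesion genes (CADM1). Of 7 ribosome and translation genes and 3 noncoding RNAs, 0 moved either way, and of 8 mitochondrial genes 0 moved to proximal and 2 to distal (MRPL17 and NDUFC2). The following examples were named after their values were seen. WEE1, the kinase that holds back mitosis, used its proximal site for 35.3% and 15.6% in the CFIm68 lines, 2.27% and 1.64% in the CFIm59 lines and 4.35% in the control (2.30 to 8.06). YAP1, the Hippo pathway coactivator, was at 36.6% and 33.3%, 8.08% and 4.08%, and 7.48% (3.84 to 14.1). WEE1 and YAP1 had 9 and 8 proximal reads in the control, few beside a site minimum of 5 reads per library on average. Their values are therefore given with no test. RAB6A, a Golgi GTPase in the segment, was at 97.3% and 97.6%, 87.2% and 84.6%, and 81.9% (74.9 to 87.2; adjusted p = 4.44e-05). In WEE1, YAP1 and RAB6A both CFIm68 lines lay above the other 3 libraries. In the CFIm59 lines the list members that passed were FDX1, POLR2L, an RNA polymerase II subunit, and KMT2A, a histone methyltransferase, all to distal.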

How the data were processed

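Poly(A) site sequencing, primed with oligo(dT), was done on RNA of 5 HEK293T cell samples. The deposited table gives raw read counts for every site in each of the 5 libraries, and 0 columns of other samples. Build hg19 and the tools deepTools 2.4 and TopHat2 2.1.0 stand in the submitters' processing notes without their roles. Site calling, filtering for internal priming and gene assignment were not given in the sources used here. A site listed under several genes was counted at its first listing, and whether positions count from 0 or 1 is not stated.

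Counts were summed per gene and scaled by TMM. Expression and site use (the 2 most-read sites of a gene, with library terms and the interaction of site and group; pairs with 20 and sites with 5 or more reads per library on average) were fitted over all genes and all 5 libraries with edgeR 4.0.16's quasi-likelihood test (R 4.3.3, Benjamini-Hochberg adjustment, threshold 0.05, 2-sided). The control had no replicate and was assumed to vary like the knockout lines, so p-values measure the spread between cell lines; no batch is given in the labels. A single gene's exact permutation test could not go below 0.333 with these groups. Alternatives were DESeq2 1.42.0, its size factors, other filters, last exon sites only and each line left out. Common dispersions were 0.0218 for genes and 0.0173 for pairs. The CFIm59 fits were afterwards run on data simulated with these dispersions, and the outcome is not given here. Gene types came from GENCODE and promoters from RefSeq by symbol, where 586 of 812 members matched (72.2%), too few for a check over the whole set. The members, lists, segment and tests were chosen with earlier results of these data known. Genes were named as the 8 highest and 8 lowest by fold with a mean of 20 reads, the 8 to proximal and 4 to distal with 50 pair reads, CPSF7 with 5 neighbours on each side, and up to 4 most-read members of each of 12 lists; symbols of small RNA and antisense families were left out.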

Additional observations from a re-analysis of the deposited data

How the results depend on the processing

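No result that passed a test changed direction under the alternatives run, and the chromosome's small CFIm59 median, which has no test, changed sign with library totals. DESeq2 in place of edgeR's quasi-likelihood test gave fewer calls on chromosome 11: 11 higher and 15 lower for CFIm59 expression (39 and 36 with edgeR), 2 and 3 for CFIm68 expression (34 and 7), 48 and 10 between the knockouts (131 and 34), 0 and 0 to proximal and distal for CFIm59 site use (2 and 12), 29 and 3 for CFIm68 site use (53 and 10), and 11 to distal between the knockouts (20). Asking 100 reads per pair and 20 per site left fewer genes and gave 3 to distal for CFIm59, 20 to proximal and 6 to distal for CFIm68, and 22 and 11 between the knockouts (93 and 20). Last exon sites alone gave 1 to proximal for CFIm59. With 1 line left out, the counts ran from 25 to 46 higher for CFIm59 expression, from 8 to 11 lower for CFIm68 expression, from 68 to 114 higher and 16 to 34 lower between the knockouts, and from 0 to 5 to proximal and 4 to 15 to distal for CFIm59 site use. A lone remaining line was assumed to vary like the other group. The cause of these changes was not tested, beyond the fewer libraries or genes of a setting.

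The chromosome 11 median of the mean CFIm68 ratio was log2 0.22, and it was 0.43 with library totals, 0.21 with DESeq2 size factors, 0.17 with genes of 100 or more reads, 0.16 with genes of 1 or more, and 0.20 to 0.21 with 1 line left out. The CFIm59 median was -0.05, and it was 0.0289 with library totals, -0.11 and 0.00 with those filters. Library totals move all genes alike.

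The line numbers of the 2 knockouts share only a number, since the deviations of same-numbered lines correlated at -0.02 for expression and 0.03 for site use. With the line number as a replicate block, 143 genes were higher and 35 lower between the knockouts, and 91 moved to proximal and 22 to distal. Among single named genes 308 repeats kept their direction and side of the threshold, 32 lost the call and 5 moved by more than 1 SD. Depth limits genes near 20 reads, where 1 library can hold 0.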

Other observations

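A set of 15 members, chosen after their values were seen, had 3 or fewer reads in the control and passed as higher in the CFIm59 lines (quasi-likelihood test in edgeR, Benjamini-Hochberg adjusted). RAB38, FANCF, CD44 and ETS1 among them are described above. Of the 15, 10 have 20 reads only through the CFIm59 lines and so had to differ, and their values are given with no test. Of the 15, 7 had no control read, and 4 of those 7 had no read in either CFIm68 line. The share of such genes over the whole table is not given here, so nothing is read from these counts. FLI1, an ETS transcription factor at 128.7 Mb, had 12 and 41 reads in the CFIm59 lines and 0 in both CFIm68 lines and the control, and its neighbour ETS1 at 128.3 Mb had 21 and 12 reads, 0 in both CFIm68 lines and 2 in the control. Against a floor of 3 reads in the control library, FLI1 was 6.39-fold higher in the lower CFIm59 line and 15.1-fold in the other. Folds over this floor leave out the counting error of the CFIm59 reads. CD44, the hyaluronan receptor, had 25 and 11 reads and was 4.04-fold above the floor in the lower line and 13.3-fold in the other. FAM111B, a protease gene at 58.9 Mb, had 21 and 22 reads and was 8.08-fold above the floor in the lower line and 11.2-fold in the other. Beside it, GLYATL2 at 58.6 Mb had 30 and 23 reads in the CFIm59 lines, 2 and 1 in the CFIm68 lines and 2 in the control, and DTX4 at 58.98 Mb had 12 and 10, 1 and 0, and 1. ZFP91 at 58.4 Mb had 102 and 134 reads in the CFIm59 lines and 133 in the control. These reads are not scaled for depth, and the control library was deeper than either CFIm59 library.

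PKP3, which encodes a desmosome protein, had 54 reads in CFIm59 line 1 and 0 reads in CFIm59 line 2, both CFIm68 lines and the control. Its reads came from 1 line alone, the line whose epithelial markers summed to 56.4 CPM, and the part of those markers in it was not tested.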
